A study of Mus musculus with 20 samples.

Results

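Fas, Nfkb2, Nfkbia and Ripk3 are a death receptor, an NF-kB subunit, an NF-kB inhibitor and a kinase of lytic cell death, described here in the livers of mice given an antibody to the receptor CD40. They were picked by name, with earlier results of these data known, among the genes of these routes to which counts could be attributed, and are 4 of the 4217 mouse genes with attributed counts and of the 2200 genes tested. All 4 passed the filter on low counts. Liver RNA was sequenced from 20 individual mice in 4 groups of 5: anti-CD40 with antibiotics (Anti-CD40 + ABX, mice 11 to 15), anti-CD40 without antibiotics (mice 16 to 20), control with antibiotics (Control + ABX, mice 1 to 5) and control without antibiotics (mice 6 to 10). The sources used here give neither the clone and dose of the antibody, its timing or its action on CD40, nor what the control mice received, which antibiotics were used, or the strain, sex and age of the mice.

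CD40, a member of the TNF receptor superfamily, sits on B cells, dendritic cells and macrophages, and its engagement activates NF-kB by the canonical and the noncanonical route. In the canonical route the IKK kinases phosphorylate IkB-alpha, the Nfkbia protein, which is then degraded and frees NF-kB dimers; NF-kB in turn induces Nfkbia and Nfkb2. In the noncanonical route the Nfkb2 protein p100 is processed to p52, which pairs with RelB. Fas carries the signal of Fas ligand to caspase-8, and hepatocytes are known to be sensitive to it; Ripk3 phosphorylates MLKL in necroptosis, the form of lytic death that follows when caspase-8 is not active. Cd40 itself, the target of the antibody, was not analysed here, since no counted interval could be attributed to it, and so the treatment could not be checked against its own gene.

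Each gene was measured over the small part that happened to be counted, because the authors counted mouse alignments at human exon coordinates (GRCh38 positions read on the mouse build mm10, which is GRCm38). Each of the 4 genes was covered by 1 counted feature. Fas lies at chr19:34290666-34327772 on the plus strand, and 251 bp of its exons were counted, 12.2% of their length. Of these, 108 bp lie in a Fas exon that is not part of the main coding transcript, and the rest in the 3′ UTR in exon 9. The same feature held 1392 bp of Fas intron and 5816 bp outside the gene. Nfkb2 lies at chr19:46304320-46312385 on the plus strand and was counted over 108 bp at chr19:46306470-46306577, with 57 bp of exon, 1.2% of its exon length. Nfkbia lies at chr12:55489410-55492647 on the minus strand and was counted at chr12:55492378-55493316, which holds 149 coding bases and 121 bases of 5′ UTR of exon 1 and 669 bp upstream of the gene. Ripk3 lies at chr14:55784995-55788865 on the minus strand and was counted at chr14:55787927-55788376, over 139 coding bases of exon 2, 207 of exon 3 and the 104-bp intron between them; 2012 bp of its feature lie outside the gene. A feature's counts cannot be divided among exon, intron and flank, and they do not use strand.

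**Figure D1:**
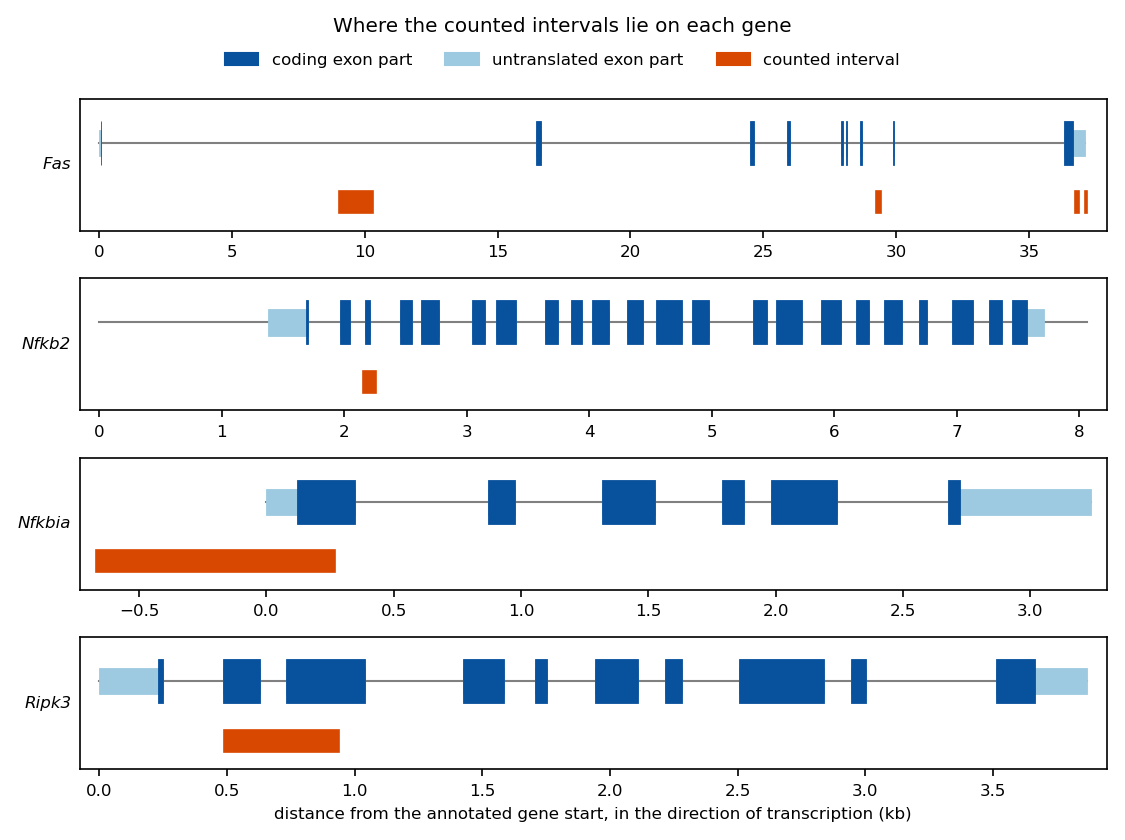
Counted intervals (orange) below the main coding transcript of each gene (dark blue, coding exon parts; light blue, untranslated exon parts), by distance from the annotated gene start in kb in the direction of transcription; each gene has its own scale. Fas was counted over 4 stretches of the gene, Nfkb2 over 1 exon and its flanks, Nfkbia over part of exon 1 and the bases before it, and Ripk3 over parts of exons 2 and 3.

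The counted coding bases of Nfkb2, Nfkbia and Ripk3 are shown from the GENCODE M21 transcripts, since they are all that the measurements of these genes see of the coding sequence, apart from exon 3 of Ripk3. The Nfkb2 stretch is the whole of coding exon 3 (chr19:46306486-46306526, plus strand, in capitals throughout). The Nfkbia stretch is only the counted coding part of exon 1, from the start codon on (chr12:55492378-55492526, minus strand). Its capitals mark the codons of the motif around the pair of serines that IKK phosphorylates. The Ripk3 stretch is exon 2 without its first bases (chr14:55788238-55788376, minus strand), and its capitals mark the codons of the glycine-rich loop that binds the nucleotide in the kinase domain.
Nfkb2 exon 3: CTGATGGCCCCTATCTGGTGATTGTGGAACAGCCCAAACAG
Nfkbia exon 1: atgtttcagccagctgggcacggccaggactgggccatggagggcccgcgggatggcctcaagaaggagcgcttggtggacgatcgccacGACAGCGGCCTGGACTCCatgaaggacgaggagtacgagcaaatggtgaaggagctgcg
Ripk3 exon 2, counted part: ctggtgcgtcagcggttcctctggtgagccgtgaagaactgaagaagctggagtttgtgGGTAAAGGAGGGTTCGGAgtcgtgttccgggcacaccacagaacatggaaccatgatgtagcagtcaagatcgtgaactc

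The promoters of the 4 genes, read from the RefSeq table of GRCm38.p6 as the 250 bases before each annotated start, differed in the letters they hold. A script searched both strands for the kappaB consensus of NF-kB (10 bases), for the core of the interferon-stimulated response element (GAAA, any 2 bases, GAAA) and for the gamma-activated site core TTCNNNGAA. The Nfkbia window (chr12:55492648-55492897, minus strand) lies inside the counted interval and held 1 kappaB match, 29 to 20 bases before the start. Nfkb2 has 3 RefSeq starts, and each of its windows held a kappaB match. The first window held 3, of which a pair overlap each other, and also 1 gamma-activated site core. All Nfkb2 windows lie inside the gene as annotated by GENCODE and overlap annotated exons, whereas the windows of Fas and Nfkbia overlap none. The Fas window (chr19:34290409-34290658, plus strand) held no kappaB match and 1 gamma-activated site core, 93 to 85 bases before the start. The Ripk3 window held none of the 3 motifs. Of 32544 RefSeq windows of the same length, 7.28% held a kappaB match, 2.98% the interferon-stimulated core and 7.04% the gamma-activated core. The matches are shown in capitals, for Nfkb2 as stretches of 30 bases (in order chr19:46304688-46304717, chr19:46304707-46304736, chr19:46305449-46305478 and chr19:46305695-46305724, all plus strand), and are letters, not measured binding sites.
Nfkbia promoter: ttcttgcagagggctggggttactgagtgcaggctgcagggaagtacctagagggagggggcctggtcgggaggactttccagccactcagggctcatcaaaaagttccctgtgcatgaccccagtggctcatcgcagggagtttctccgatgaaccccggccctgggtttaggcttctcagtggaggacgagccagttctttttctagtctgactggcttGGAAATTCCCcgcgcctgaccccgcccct
Nfkb2 first start, far match: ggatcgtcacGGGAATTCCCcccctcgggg
Nfkb2 first start, near match: ccccctcggggggccgaaaGGGGCTTTCCc
Nfkb2 middle start: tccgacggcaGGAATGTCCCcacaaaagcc
Nfkb2 last start: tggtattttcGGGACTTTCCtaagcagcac
Fas promoter: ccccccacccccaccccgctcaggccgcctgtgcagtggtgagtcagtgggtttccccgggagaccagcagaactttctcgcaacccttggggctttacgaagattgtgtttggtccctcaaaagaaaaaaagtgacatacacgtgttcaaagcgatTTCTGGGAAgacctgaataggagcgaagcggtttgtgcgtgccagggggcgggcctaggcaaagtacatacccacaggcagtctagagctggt

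Libraries of anti-CD40 mice held 5053014 to 6211642 counted fragments and those of control mice 6196703 to 7618736. Of 10 hepatocyte markers listed, 3 were tested (Alb, Apob and Cps1), and their summed level was 56169 to 111191 CPM in anti-CD40 livers and 162862 to 274387 CPM in control livers, so the tissue carried its label in every mouse. Levels here are TMM-normalised counts per 1000000 (CPM), and each change is a log2 fold change ± SE by edgeR, called at a Benjamini-Hochberg adjusted p under 0.05 over the 2200 genes. In whole liver, more cells of a type and more RNA per cell cannot be told apart. By the wells in the sample labels, anti-CD40 and control mice with ABX shared no plate column, so column and antibody cannot be told apart there. Without ABX they shared only column 4, with 1 anti-CD40 and 2 control libraries.

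All 4 genes were higher in anti-CD40 livers than in control livers, with ABX and without. No anti-CD40 mouse overlapped a control mouse of the same antibiotic status for any of them. The call higher was shared by 26.6% of all tested genes with ABX and by 31.8% without ABX; separation of the groups in the higher direction was shared by 19.3% with ABX and 21.4% without. Called in either direction were 51.5% of genes with ABX and 60.6% without. The order of the changes was Nfkb2, Fas, Nfkbia, Ripk3 with ABX and Nfkb2, Nfkbia, Fas, Ripk3 without ABX. Over all genes tested, the median log2 fold change was 0.02 with ABX and 0.03 without. In the exact permutation test over mice, each of these 8 differences had p = 0.00794, the smallest that 5 against 5 mice allow, and an adjusted p of 0.0141 over the 16 tests run.

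**Figure D2:**
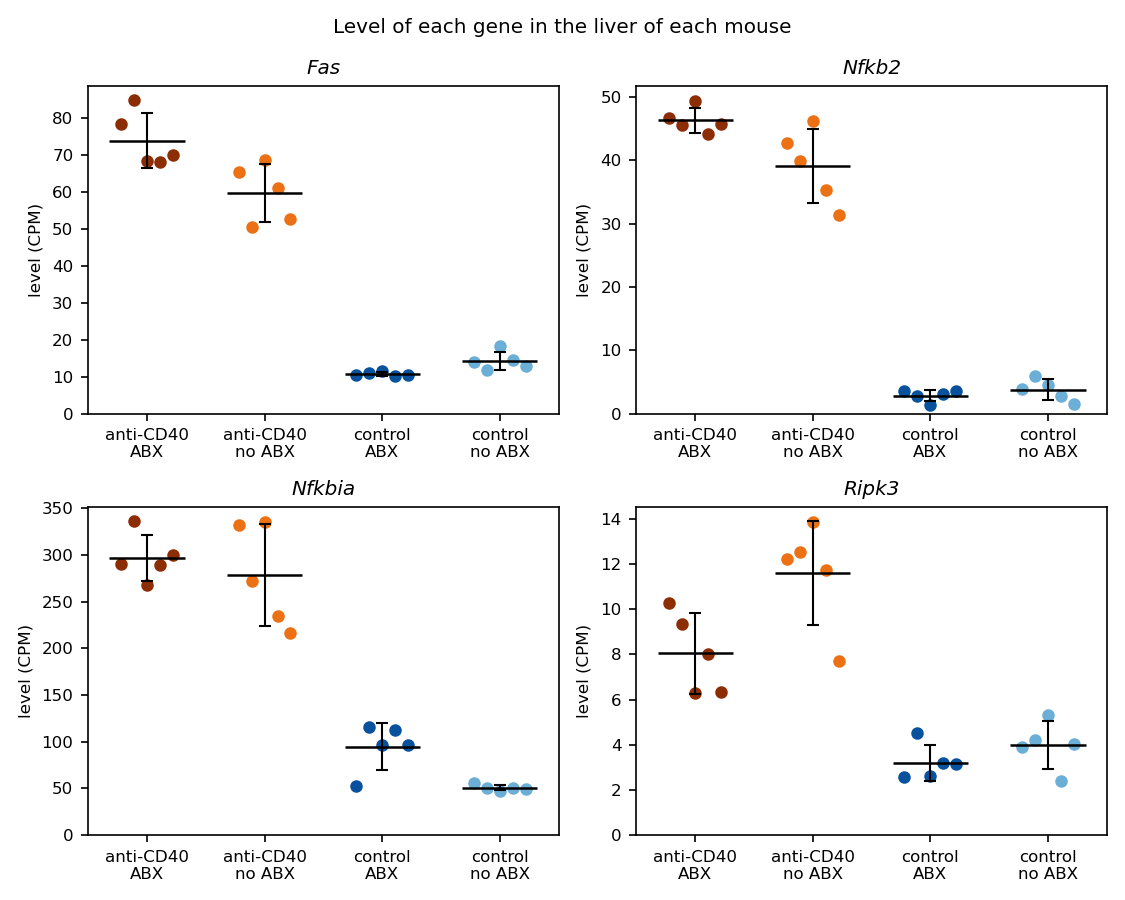
Level in CPM (y axis, from 0, own scale per panel) of each gene in each liver: anti-CD40 with ABX, anti-CD40 without ABX, control with ABX and control without ABX, 5 mice each. Points are mice, lines means and bars ± 1 SD; every anti-CD40 point lies above every control point, while 1 of the control mice with ABX sits among the control mice without ABX for Nfkbia.

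Fas, the receptor of Fas ligand, signals through caspase-8 and is carried by hepatocytes and by activated lymphocytes. Its level was 78.2, 84.8, 68.2, 67.9 and 69.9 CPM in the anti-CD40 livers with ABX, against 10.4, 11.02, 11.5, 10.1 and 10.5 CPM in the control livers with ABX. Without ABX it was 65.2, 50.4, 68.6, 61.1 and 52.5 CPM in anti-CD40 livers, against 13.8, 11.8, 18.2, 14.4 and 12.8 CPM in control livers. The lowest anti-CD40 liver, at 50.4 CPM, was thus above the highest control liver, at 18.2 CPM, and the control livers with ABX were the most alike, with a coefficient of variation of 5.31%. With ABX, Fas averaged 73.8 ± 7.45 CPM in anti-CD40 and 10.7 ± 0.569 CPM in control livers (SD, n = 5 each), a log2 fold change of 2.78 ± 0.12 (adjusted p = 1.04e-15 by edgeR), or 6.88-fold. Without ABX it averaged 59.6 ± 7.88 CPM in anti-CD40 and 14.2 ± 2.43 CPM in control livers, a log2 fold change of 2.07 ± 0.11 (adjusted p = 9.58e-14 by edgeR), or 4.19-fold. Within plate column 4, the 1 anti-CD40 library without ABX exceeded the 2 control libraries by 2.24 in log2 CPM.

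Nfkb2 encodes p100, precursor of the p52 subunit of noncanonical NF-kB and itself an inhibitor of RelB. It was measured at 46.7, 45.6, 49.3, 44.2 and 45.7 CPM in anti-CD40 livers with ABX, against 3.53, 2.71, 1.30, 3.005 and 3.51 CPM in control livers with ABX. Without ABX it was 42.7, 39.9, 46.2, 35.3 and 31.4 CPM in anti-CD40 livers, against 3.91, 5.98, 4.50, 2.82 and 1.52 CPM in control livers. The anti-CD40 livers with ABX were close together (coefficient of variation 4.13%), and the control livers spread widely at a low level (32.4% with ABX, 45.1% without). The control levels rest on 7 to 37 counts a mouse; the lowest, 7 counts, has a 95% Poisson interval of 2.81 to 14.4 counts, which covers counting error only. Means were 46.3 ± 1.91 CPM in anti-CD40 and 2.81 ± 0.911 CPM in control livers with ABX, a log2 fold change of 4.02 ± 0.22 (adjusted p = 2.33e-13 by edgeR), or 16.3-fold. They were 39.1 ± 5.89 CPM in anti-CD40 and 3.75 ± 1.69 CPM in control livers without ABX, a log2 fold change of 3.38 ± 0.21 (adjusted p = 1.56e-12 by edgeR), or 10.4-fold. The difference within plate column 4 was 4.16 in log2 CPM.

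Nfkbia encodes IkB-alpha, which holds NF-kB in the cytoplasm and is resynthesised after NF-kB has been activated. In anti-CD40 livers with ABX it was measured at 290.0, 336, 268, 289 and 300.4 CPM, against 52.3, 115, 96.4, 113 and 96.9 CPM in control livers with ABX. In anti-CD40 livers without ABX it was 332, 272, 336, 234 and 216 CPM, against 55.2, 50.6, 47.7, 50.5 and 49.2 CPM in control livers without ABX. The anti-CD40 livers with ABX all lay within or just above the range of those without, whereas 4 of the 5 control livers with ABX lay above all control livers without, and mouse 1 lay among them. With ABX, means were 297 ± 25.1 CPM in anti-CD40 and 94.7 ± 25.3 CPM in control livers, a log2 fold change of 1.65 ± 0.16 (adjusted p = 1.32e-08 by edgeR), or 3.14-fold. Without ABX, means were 278 ± 54.8 CPM in anti-CD40 and 50.6 ± 2.82 CPM in control livers, a log2 fold change of 2.46 ± 0.16 (adjusted p = 3.32e-11 by edgeR), or 5.49-fold. Within plate column 4 the difference was 2.73 in log2 CPM.

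Ripk3, the kinase that sets off necroptosis, was measured from 14 to 98 counts a mouse. Its level was 10.3, 9.35, 6.28, 8.01 and 6.33 CPM in anti-CD40 livers with ABX, against 2.57, 4.52, 2.60, 3.18 and 3.14 CPM in control livers with ABX. Without ABX the values were 12.2, 12.5, 13.9, 11.8 and 7.72 CPM in anti-CD40 livers, against 3.91, 4.20, 5.33, 2.38 and 4.04 CPM in control livers. Mouse 20, at 7.72 CPM, stood below the other anti-CD40 mice without ABX and was still above every control mouse. With ABX, Ripk3 averaged 8.05 ± 1.78 CPM in anti-CD40 and 3.20 ± 0.790 CPM in control livers, a log2 fold change of 1.32 ± 0.23 (adjusted p = 2.55e-05 by edgeR), or 2.50-fold. Without ABX it averaged 11.6 ± 2.31 CPM in anti-CD40 and 3.97 ± 1.06 CPM in control livers, a log2 fold change of 1.55 ± 0.21 (adjusted p = 8.85e-07 by edgeR), or 2.93-fold. Within plate column 4 the difference was 1.87 in log2 CPM.

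The distance between anti-CD40 and control livers was called different with ABX and without for Fas and Nfkbia, in opposite directions, in the fit without plate column. The anti-CD40 effect on Fas was larger with ABX, by 0.72 ± 0.16 on the log2 scale (adjusted p = 0.00962 by edgeR), and that on Nfkbia was smaller with ABX (difference -0.81 ± 0.22, adjusted p = 0.0322 by edgeR). Among all tested genes 7.55% were called in this comparison, 4.36% with a larger and 3.18% with a smaller value under ABX. For Nfkb2 the difference was 0.65 ± 0.31 (adjusted p = 0.21 by edgeR) and for Ripk3 -0.23 ± 0.31 (adjusted p = 0.708 by edgeR), both short of a call. With plate column as a term neither Fas (0.62, adjusted p = 0.26 by edgeR) nor Nfkbia (-1.05, adjusted p = 0.162 by edgeR) was called. The Nfkbia call was also lost when any of 12 single mice was left out (mice 2, 3, 4, 5, 8, 9, 10, 11, 13, 14, 16 and 18), with values of -0.80 to -0.72 and adjusted p of 0.0501 to 0.0637 by edgeR. It was lost too with library totals (-0.70, adjusted p = 0.0532 by edgeR) and with no filter (-0.82, adjusted p = 0.0857 by edgeR).

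**Figure D3:**
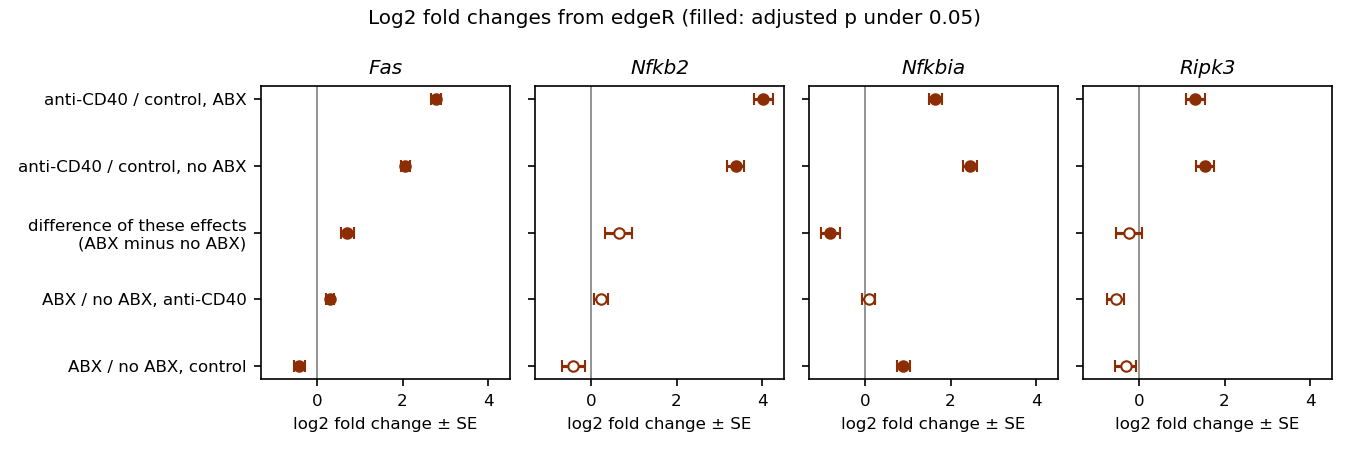
Log2 fold change ± SE from edgeR (x axis) of each gene in 5 comparisons (rows): anti-CD40 over control with ABX and without ABX, the difference of these effects (with ABX minus without), and ABX over no ABX in anti-CD40 and in control mice. Filled points have an adjusted p under 0.05; the Fas difference lies right of 0 at 0.72 and the Nfkbia difference left of 0 at -0.81.

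In the same fit, the change with ABX was called in both arms for Fas and in control mice alone for Nfkbia. In control mice, Nfkbia was higher with ABX than without (log2 fold change 0.90 ± 0.16, adjusted p = 0.00229 by edgeR) and Fas was lower (-0.41 ± 0.12, adjusted p = 0.046 by edgeR), with all 5 Fas values with ABX below all 5 without. Of all tested genes 6.68% were called in that comparison, 3.45% higher and 3.23% lower, and 2.68% had all ABX mice below all mice without. Nfkb2 (-0.40 ± 0.27, adjusted p = 0.446) and Ripk3 (-0.31 ± 0.24, adjusted p = 0.534) were not called by edgeR there. Without mouse 1, the Nfkbia value was 1.05, and no mouse left out ended that call. The Fas call ended when any of 15 mice was left out (mice 1 to 6, 8 to 11, 13 to 16 and 19; -0.44 to -0.31, adjusted p of 0.0524 to 0.151 by edgeR). It also ended with DESeq2's size factors (adjusted p = 0.0618 by edgeR), no filter (0.0796), plate column as a term (0.0961), only the compared libraries (0.099), without mice 14, 15, 19 and 20 (0.0766) and by DESeq2 (0.0829), while its exact permutation p was 0.00794 (adjusted 0.0141). Within plate column 3, 5 ABX against 3 other control libraries differed by 0.84 for Nfkbia and by -0.41 for Fas in log2 CPM.

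In anti-CD40 mice, Fas was higher with ABX than without (0.31 ± 0.10, adjusted p = 0.0389 by edgeR), in a comparison where 15.9% of genes were called, 8.68% higher and 7.23% lower (of these calls 54.6% were higher, and 45.1% with library totals as the scale). The 2 sets of Fas values overlapped, as the lowest with ABX was 67.9 CPM and the highest without ABX was 68.6 CPM. That call ended when mouse 11, 12, 17 or 20 was left out (values of 0.27 to 0.31, adjusted p of 0.062 to 0.0824 by edgeR). It also ended with library totals (adjusted p = 0.0618), no filter (0.0713), only the compared libraries (0.0524), without mice 14, 15, 19 and 20 (0.151) and with plate column as a term (0.18, adjusted p = 0.686), all by edgeR. The 5 ABX libraries exceeded the 1 other library in plate column 4 by 0.17 in log2 CPM. Ripk3 was lower with ABX by a value that missed the threshold (-0.53 ± 0.20, adjusted p = 0.0685 by edgeR), and passed it without mouse 20 (-0.63, adjusted p = 0.0284 by edgeR). Nfkb2 (0.24 ± 0.17, adjusted p = 0.352) and Nfkbia (0.09 ± 0.15, adjusted p = 0.715) were not called by edgeR. Across the 4 groups the mean levels of Fas and Nfkb2 thus ran from anti-CD40 with ABX through anti-CD40 without ABX and control without ABX to control with ABX. For Nfkb2, neither neighbouring pair that differed by antibiotics alone passed edgeR's test; the exact permutation test passed the anti-CD40 pair (0.25 in log2 CPM, adjusted p = 0.0423). For Nfkbia the control groups stood in the other order, and for Ripk3 the anti-CD40 groups did.

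Other genes of these routes were taken from 9 lists of 183 genes, from ligands to Bcl-2 relatives. Only 25 had an attributed interval and 19 were tested, the 4 above among them. Of the other 15, with ABX 12 were called higher and 3 lower in anti-CD40 livers, and without ABX 10 higher, 3 lower and 2 neither. Ccl3 (0 to 1 counts in a control liver) and Traf3ip3 (2 to 13) passed the filter on low counts only through anti-CD40 livers. Tnfrsf19 (0 to 9 counts in an anti-CD40 liver) passed it only through control livers. A call in the other direction was hardly possible for these genes, which are part of the tallies and medians given here. Calls lower were made for 24.9% of all genes with ABX and 28.8% without. The median log2 fold change of the 15 was 0.94 with ABX and 1.02 without, against 0.02 and 0.03 over all genes. None of the 15 ligands listed was tested. The counted exon length of the 15 other tested genes ran from 79 bp for Xiap and 82 bp for Birc2 to 3658 bp for Ikbkb. Like Nfkb2, Xiap and Birc2 could not be fitted with a minimum overlap of 100 bp.

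The other tested receptor, Tnfrsf19, had 28 counts in the anti-CD40 livers with ABX and 83 in the control livers with ABX. It averaged 0.894 ± 0.630 CPM in anti-CD40 and 2.90 ± 1.26 CPM in control livers with ABX, and fell by 1.67 ± 0.47 on the log2 scale (adjusted p = 0.00429 by edgeR). As it passed the filter on low counts only through control livers, a call higher was hardly possible, and its fall is no contrast to Fas. Between receptor and NF-kB, 5 of 33 listed adaptors, ubiquitin enzymes and kinases were tested. Birc2, the ubiquitin ligase cIAP1 that holds the noncanonical route in check, averaged 64.3 ± 6.11 CPM in anti-CD40 and 8.89 ± 2.27 CPM in control livers with ABX (2.85 ± 0.16 on the log2 scale); without ABX its change was 2.69 ± 0.16. Traf3ip3, which binds the adaptor TRAF3, rose by 2.44 ± 0.32 with ABX and 2.64 ± 0.30 without, and was tested only through anti-CD40 livers. The catalytic IKK kinases went apart: Ikbkb (IKK-beta), the kinase of IkB-alpha, rose by 0.94 ± 0.09 with ABX and 0.91 ± 0.09 without. Chuk (IKK-alpha), the kinase of p100, changed by -0.31 ± 0.09 with ABX and -0.54 ± 0.09 without. When library totals set the scale it changed by 0.03 with ABX (adjusted p = 0.78 by edgeR), or by -0.34 relative to the median of all genes. Traf6, an adaptor of CD40, changed by 0.22 ± 0.08 with ABX (adjusted p = 0.0175 by edgeR; not called without mouse 2 or 11, at 0.20 each, with no filter at 0.20, or with plate column as a term at 0.10) and by 0.06 ± 0.08 without ABX (adjusted p = 0.507 by edgeR).

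Of 8 listed genes of the IkB family 3 were tested, Nfkbia, Nfkbie and Nfkbiz, and all 3 were called higher with ABX and without, a call shared by 26.6% and 31.8% of all tested genes. Nfkbie (IkB-epsilon), another cytoplasmic inhibitor, was at 74.9 to 96.4 CPM in anti-CD40 and 1.29 to 2.89 CPM in control livers with ABX (5.44 ± 0.19, adjusted p = 6.89e-17 by edgeR). Without ABX it averaged 68.8 ± 15.05 CPM in anti-CD40 and 2.81 ± 0.580 CPM in control livers (4.60 ± 0.18, adjusted p = 4.85e-16 by edgeR). Its effect was 0.84 ± 0.29 larger with ABX (adjusted p = 0.0809 by edgeR), the opposite sign to Nfkbia and short of a call; it passed without mouse 2 (1.03, adjusted p = 0.0399). Nfkbiz, a nuclear IkB protein that assists transcription, averaged 44.6 ± 2.92 CPM in anti-CD40 and 8.25 ± 1.35 CPM in control livers with ABX (2.44 ± 0.18), and its change without ABX was 2.31 ± 0.17.

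Among 44 listed NF-kB targets, Ccl3, a chemokine of macrophages, was the 1 tested, and only through anti-CD40 livers. It had 82 counts in the 5 anti-CD40 livers with ABX and 2 counts in the controls with ABX, a ratio of 37.6 (95% Clopper-Pearson interval 10.1 to 316). Without ABX it had 295 counts in anti-CD40 livers and 3 counts in control livers, a ratio of 96.1 (32.6 to 469); the intervals cover counting error only. Without mouse 18, which held 158 of these counts, the ratio was 54.8 (18.4 to 269), and with ABX it was 60.1 without mouse 4 and 60.8 without mouse 5, each of which held 1 of the 2 control counts (ratios with a mouse left out were added after seeing the data). Mouse 18 held 26.1 CPM of it, and the other anti-CD40 livers without ABX 1.86 to 9.60 CPM. In anti-CD40 mice Ccl3 was lower with ABX (-1.77 ± 0.52, adjusted p = 0.0268 by edgeR), a call that ended without mouse 18 (-0.88, adjusted p = 0.163) and without mouse 11, 14 or 15 (-1.68 to -1.62, adjusted p of 0.0612 to 0.0679). It also ended with no filter (-1.77, adjusted p = 0.0732 by edgeR), with only the anti-CD40 libraries fitted (-1.76, adjusted p = 0.141) and with plate column as a term (-0.89, adjusted p = 0.689).

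**Figure D4:**
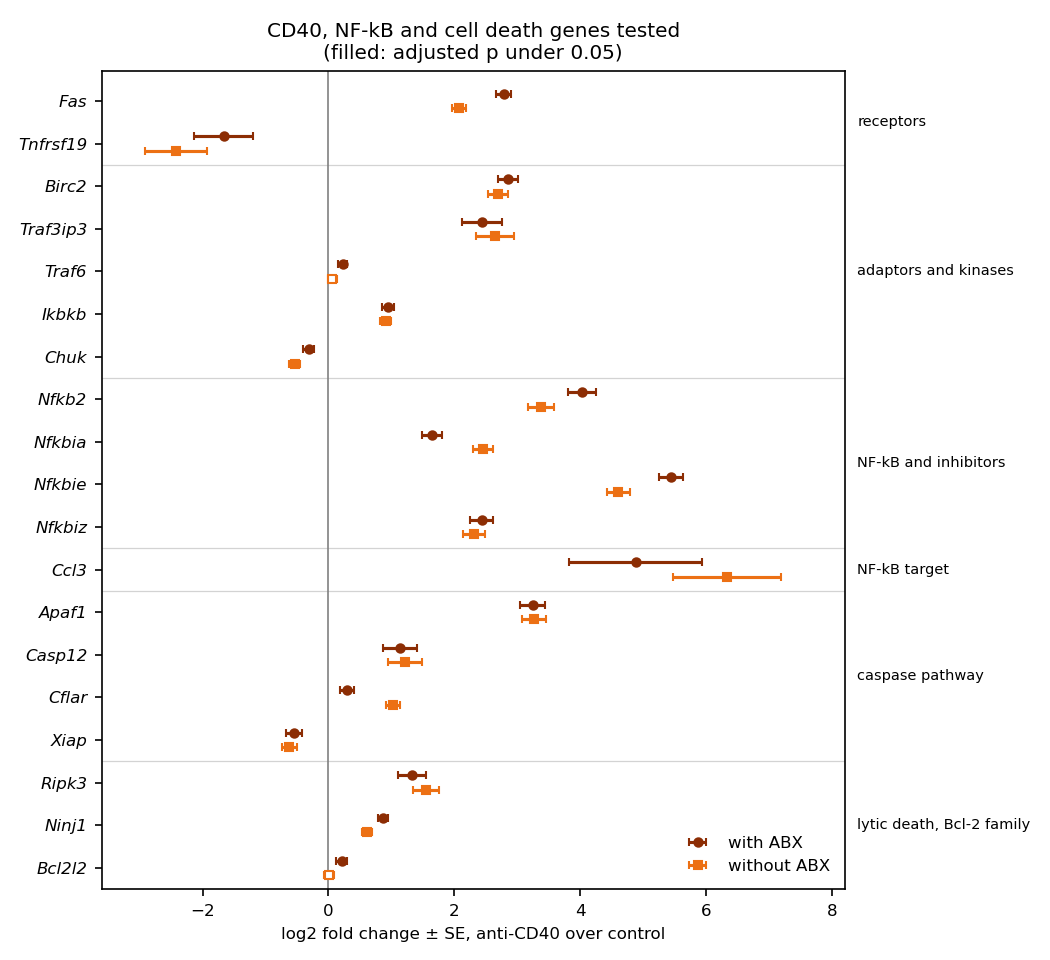
Log2 fold change ± SE from edgeR (x axis) of anti-CD40 over control for the 19 tested genes of the CD40, NF-kB and cell death lists, grouped by role (right), with ABX (circles) and without ABX (squares). Filled symbols have an adjusted p under 0.05. Ccl3 and Traf3ip3 passed the filter on low counts only through anti-CD40 livers, and Tnfrsf19 only through control livers. Tnfrsf19, Chuk and Xiap lie left of 0, and Cflar lies further right without ABX (1.02) than with ABX (0.30). With library totals as the scale, Chuk with ABX was at 0.03, or at -0.34 relative to the median of all genes.

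Around Fas and Ripk3, 6 other genes of cell death are described. Apaf1, the scaffold on which mitochondrial cytochrome c activates caspase-9, averaged 19.3 ± 3.25 CPM in anti-CD40 and 2.004 ± 0.659 CPM in control livers with ABX (3.24 ± 0.20); without ABX its change was 3.26 ± 0.19. Casp12, a caspase of the endoplasmic reticulum in mice, rose by 1.13 ± 0.27 with ABX and 1.22 ± 0.26 without; with a minimum overlap of 100 bp the value with ABX was 0.80 (adjusted p = 0.0521 by edgeR). Xiap, which inhibits caspases, fell by 0.54 ± 0.12 with ABX and by 0.62 ± 0.12 without. With library totals as the scale its values were -0.19 (adjusted p = 0.301 by edgeR) with ABX and -0.36 (adjusted p = 0.054) without. Relative to the medians of all genes at that scale they were -0.57 and -0.63. Ninj1, which ruptures the plasma membrane late in lytic death, rose by 0.86 ± 0.08 with ABX and 0.61 ± 0.08 without. Bcl2l2 (Bcl-w), a survival protein, changed by 0.21 ± 0.09 with ABX (adjusted p = 0.0466 by edgeR), a call lost when any of 13 mice was left out (0.16 to 0.22), and its value without ABX was 0.01 ± 0.09 (adjusted p = 0.939).

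Cflar (c-FLIP), which blocks caspase-8 at the Fas receptor, was, like Nfkbia, called lower in the difference of the anti-CD40 effects and higher with ABX among control mice. It averaged 176 ± 14.8 CPM in anti-CD40 and 143 ± 27.1 CPM in control livers with ABX, a log2 fold change of 0.30 ± 0.11 (adjusted p = 0.0269 by edgeR). This call ended without mouse 1 (0.19, adjusted p = 0.0962 by edgeR), without mouse 3, 12 or 13 (0.26 to 0.28), and with plate column as a term (0.17, adjusted p = 0.581). Without ABX it averaged 204 ± 25.6 CPM in anti-CD40 and 101 ± 6.76 CPM in control livers, a log2 fold change of 1.02 ± 0.11 (adjusted p = 2.49e-08 by edgeR). The difference of the effects was -0.73 ± 0.16 (adjusted p = 0.00695 by edgeR), not called with plate column as a term (-0.86, adjusted p = 0.139 by edgeR), and among control mice Cflar was higher with ABX (0.51 ± 0.11, adjusted p = 0.00729 by edgeR). By mouse, control livers with ABX held 101, 147, 138, 154 and 175 CPM, and control livers without ABX 94.7 to 112 CPM. Mouse 1 was the lowest of its group for Cflar as for Nfkbia, and for both genes lay within the range of the control mice without ABX.

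The genes whose profile over the 20 libraries was most like each of the 4 were named by the root mean square distance between log2 CPM profiles centred on their means, over 2188 genes. Nearest to Fas were Lacc1 (0.24), Lgals3bp (0.27) and Ly6e (0.28), and nearest to Nfkb2 were Adap1 (0.38), Arid5a (0.49) and Srxn1 (0.49). Nearest to Nfkbia were Fgfr2 (0.37), Map4k1 (0.38) and H2-DMb1 (0.39), and nearest to Ripk3 were Dusp10 (0.31), Dennd3 (0.31) and Znrf1 (0.32). None of the 4 genes was among the 3 nearest of another: seen from Fas, Nfkbia ranked 55, Ripk3 100 and Nfkb2 158. These distances describe profiles that share the same libraries, scaling and group differences.

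Several markers of immune and liver cells were called between anti-CD40 and control livers, where 51.5% of all tested genes were called with ABX and 60.6% without. Both tested T cell markers of 10 listed, Cd8a and Cd8b1, summed to 2.84 to 6.91 CPM in anti-CD40 livers and 0 to 1.19 CPM in control livers, and both rose with ABX and without. Control levels this low do not pass the filter on low counts, so both genes were tested only through the anti-CD40 mice. A call lower was thus hardly possible for them. Calls higher were made for 26.6% of all tested genes with ABX and 31.8% without. Of 11 monocyte and macrophage markers 4 were tested (Lyz2, Adgre1, Ms4a7 and Mrc1), with a sum of 245 to 971 CPM in anti-CD40 and 118 to 259.8 CPM in control livers. Despite the higher sum, 2 rose and 2 fell with ABX and without. Lyz2 changed by 2.28 with ABX and 2.32 without, and Ms4a7 by 2.08 and 2.25. Adgre1 changed by -2.54 with ABX and -2.50 without, and Mrc1 by -4.76 and -5.63. Marco, the 1 tested of 8 Kupffer cell markers, was at 22.9 to 133 CPM in anti-CD40 and 3.36 to 93.1 CPM in control livers, and was called higher with ABX but not without; the difference of the effects was 0.58 and was not called. Cd79b, the 1 tested of 9 B cell markers, was at 1.58 to 5.44 CPM in anti-CD40 and 1.63 to 3.18 CPM in control livers and was not called. The 3 tested hepatocyte markers had the lower sums in anti-CD40 livers given above (2 called lower and 1 higher, with ABX and without), and the 3 tested endothelial markers of 10 listed (Stab1, Stab2 and Pecam1) summed to 14.5 to 102 CPM in anti-CD40 and 89.0 to 145 CPM in control livers; Stab2 was called lower with ABX and without, Stab1 with ABX alone, and Pecam1 in neither. Sums were 6.79 to 129 CPM in anti-CD40 and 75.8 to 214 CPM in control livers for the stellate cell markers Col3a1 and Lum (2 tested of 10), and 9.37 to 27.7 CPM in anti-CD40 and 2.23 to 7.33 CPM in control livers for the cholangiocyte markers Sox9 and Pkhd1 (2 of 8). Both stellate markers were called lower with ABX and neither without. Sox9 was called higher with ABX (2.43) and without (3.05), whereas Pkhd1 was lower, called without ABX (-1.18) and not with ABX (-0.68, adjusted p = 0.0984 by edgeR). The plasma cell markers Ighm and Xbp1 (2 of 7) summed to 327 to 490.02 CPM in anti-CD40 and 218 to 424 CPM in control livers; Xbp1 was called higher with ABX and without, and Ighm with ABX alone. For none of the endothelial, stellate, cholangiocyte and plasma cell markers tested was the difference of the effects with ABX and without called by edgeR. That call was made for only 7.55% of all tested genes. Between anti-CD40 mice with ABX and without, edgeR called Alb (0.41) and Cps1 (0.64) higher and Stab1 (-0.89) and Sox9 (-1.25) lower. Of all tested genes 15.9% were called there. Between control mice it called Xbp1 lower with ABX (-0.45), where 6.68% of genes were called. No tested marker of these lists was at 0 in all mice of a group. No marker of NK cells, dendritic cells or neutrophils was tested. The part of these cell types in the levels of Fas, Nfkb2, Nfkbia and Ripk3 was not tested.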

How the data were processed

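The deposited files hold whole-number counts per feature, 1 table per library, not normalized by the authors. The submitters' processing notes name Trimmomatic 0.38, HISAT2 2.1.0 and the build mm10. Per the file headers, fragments were counted by featureCounts 1.5.0-p2 with paired reads, by exon and gene identifier, unstranded, against human GRCh38 (Ensembl 93). The human identifiers were set aside, the coordinates were read as mm10, and features over exons of exactly 1 GENCODE M21 gene by at least 50 bp (bedtools 2.31.1) were summed per gene. Of 58395 features 7463 went to 5552 genes, and they held 46.35% of counts; features over several genes held 52.34%.

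EdgeR 4.0.16 (R 4.3.3) fitted all 20 libraries and the 2200 genes past filterByExpr, with a mean per group, TMM factors (0.777 to 1.32) and a robust two-sided quasi-likelihood F-test, adjusted by Benjamini-Hochberg. The biological coefficient of variation was 16.7%. The procedure was tested on simulated data for anti-CD40 without ABX, with 2200 genes. Of these, 99 of 100 with a log2 change of 2 and 81 of 100 with a change of 1 were recovered. There were 8 false calls. In the mice, 60.6% of genes were called in that comparison. Recovery and false calls with so large a share of changed genes were not tested. Exact permutation tests are two-sided on log2 CPM (prior count 2). P-values weigh group differences against the spread between individual mice of the same group. Plate column is largely nested in group, so differences between columns enter the group differences more than that spread. The text names the 4 genes, the 3 nearest profiles of each (mean at least 1 CPM) and up to 6 tested genes of each list. The 4 genes and the lists were chosen with earlier results of these data known; 1 gene of the lists is not reported here and was left out of their counts. Alternatives were DESeq2 1.42.0, its size factors, library totals, no filter, other attribution rules (20 bp, 100 bp, or features with 80% of their overlap on 1 gene), plate column as a term, only the compared libraries, and leaving out mice.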

Additional observations from a re-analysis of the deposited data

Results flagged for a closer look

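The effect of anti-CD40 differed between mice with ABX and without for Fas (0.72 in log2 fold change, with ABX minus without), Nfkbia (-0.81) and Cflar (-0.73), by edgeR's test of the difference itself, among the 19 tested genes of the lists; 7.55% of all tested genes were called there. With plate column as a term none of the 3 was called (adjusted p = 0.26 for Fas, 0.162 for Nfkbia and 0.139 for Cflar by edgeR), nor was any other gene (282 had an unadjusted p under 0.05). In 16 groups of 5 mice, 4 genes by 4 groups, 3 mice lay far from the others of their group on the log2 CPM scale; chance gives about 1 in 20 groups. They were mouse 3 for Nfkb2 in control mice with ABX (0.70, from 7 counts), mouse 1 for Nfkbia in control mice with ABX (5.72), and mouse 20 for Ripk3 in anti-CD40 mice without ABX (3.01).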

How the results depend on the processing

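The anti-CD40 calls of Fas, Nfkb2, Nfkbia and Ripk3, with ABX and without, were kept under every alternative run. Nfkb2 could not be fitted with the minimum overlap at 100 bp, where it has no interval. The plate column term rests on few libraries. Columns 3 and 4 meet only in control mice without ABX (3 and 2 libraries), and columns 4 and 5 only in anti-CD40 mice without ABX (1 and 4). With ABX, that fit takes its column offset from those control mice, so it cannot settle column against antibody there. Of 756 alternative values for these genes and for the counts of calls, 690 were classed as the same. For a gene this meant the same direction and side of the threshold. For a count of calls it meant only that the count stayed within a set factor of the main count, which is a looser rule. Each value given here for Fas or Nfkbia between mice with ABX and without, other than the leave-one-out ranges, is one where a call ended or a value that was not called changed sign. With plate column as a term the differences with ABX minus without were 0.62 for Fas and -1.05 for Nfkbia, the ABX values in anti-CD40 mice 0.18 for Fas and -0.16 for Nfkbia, and the ABX value of Fas in control mice -0.44. Genes called with that term were 690 for anti-CD40 with ABX (1133 without the term), 735 without ABX (1333), 0 for the difference (166), 5 for ABX in anti-CD40 mice (350) and 77 for ABX in control mice (147); the 0 from edgeR stands beside 282 genes at an unadjusted p under 0.05, and no other tool was run with that term. With library totals the Nfkbia difference was -0.70, the Fas value for ABX in anti-CD40 mice 0.28 and Chuk with ABX 0.034. That scale set the median of all genes at 0.37 for anti-CD40 with ABX, 0.27 without, 0.10 for the difference and -0.14 for ABX in control mice, and the share of calls that were higher at 76.8%, 69.7%, 80.3% and 20.1%, against 51.6%, 52.5%, 57.8% and 51.7% with TMM; for ABX in anti-CD40 mice it was 45.1%, against 54.6%. Relative to those medians the anti-CD40 changes with ABX were 2.75 for Fas, 4.00 for Nfkb2, 1.63 for Nfkbia, 1.29 for Ripk3 and -0.34 for Chuk. With no filter the Nfkbia difference was -0.82, and the Fas values for ABX were 0.31 in anti-CD40 and -0.40 in control mice; with only the compared libraries they were 0.32 and -0.40, and without mice 14, 15, 19 and 20 they were 0.34 and -0.40. Leaving out those mice gave -0.063 for Nfkbia with ABX in anti-CD40 mice, 79 calls for the difference and 170 for ABX in anti-CD40 mice. DESeq2's size factors and its Wald test each gave -0.39 for Fas in control mice. The exact permutation test passed Nfkb2 for ABX in anti-CD40 mice (0.25 in log2 CPM, adjusted p = 0.0423). Bcl2l2 without ABX was -0.0102 with no filter, -0.0025 with the wider attribution, -0.0064 without mice 14, 15, 19 and 20, and -0.0265 to 0.0543 with 1 mouse left out. With 1 mouse left out, Fas for ABX ranged from 0.27 to 0.38 in anti-CD40 and from -0.47 to -0.31 in control mice, the Nfkbia difference from -0.96 to -0.72, and Ripk3 for ABX in anti-CD40 mice from -0.63 to -0.43. Calls ranged from 225 to 380 for ABX in anti-CD40 mice (low without mouse 14 or 18), from 89 to 157 for ABX in control mice (low without mouse 4 or 10) and from 88 to 194 for the difference (low without mouse 4, 5, 10, 14 or 18). The causes of these changes were not tested. No paired analysis was possible because the mice are numbered 1 to 20 and no number is shared between groups. Precision is limited by the short stretches counted and, for Nfkb2 and Ripk3 in control mice, by their low counts.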
